A study of Mus musculus with 3 samples.

Results

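The 33 genes described here code for the machinery that makes sterols and fatty acids, and they were taken by name from the 31053 genes of the count table. They fall into a sterol branch of 23 genes and a fatty acid branch of 10 genes. All 33 were found in the table. The sterol branch holds 18 enzymes, 3 regulators (Srebf2, Scap and Insig1) and 2 cholesterol carriers (Star and Stard4). The fatty acid branch holds the regulator Srebf1 and 9 enzymes.

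The genes were measured by droplet single-cell RNA sequencing (10x Chromium, 3' kit) of pancreatic islets from male C57Bl6/J mice, retired breeders 7 to 8 months old. There were 3 libraries, 1 per group. Every mouse carried a pump for 2 weeks: the control pumps held no S961, the S961 pumps delivered this antagonist of the insulin receptor at 20 nM per week, and in the recovered group the pumps of treated mice had been removed. After a night in culture the islets were taken apart with TrypLE, and neither the length of recovery nor the number of mice behind a library is stated. With 1 library per group no test between groups was possible. A difference here is therefore one between libraries, and each interval covers counting error only.

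Cholesterol is built from acetyl-CoA through mevalonate, farnesyl diphosphate, squalene and lanosterol, in a chain of reactions mostly at the endoplasmic reticulum. The transcription factor SREBP-2, the product of Srebf2, raises the genes of this chain when membrane sterol is low: Scap escorts it to the Golgi for cleavage, and Insig1 holds Scap back when sterol is plentiful. Fatty acid synthesis starts from citrate cut by ATP citrate lyase and is raised by SREBP-1c, from Srebf1, and by the glucose-sensing factor ChREBP, from Mlxipl. In beta cells glucose feeds both branches, and insulin secretion depends on membrane cholesterol.

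The proximal promoters of the sterol genes share short sequences known to bind NF-Y (CCAAT) and Sp1 (GGGCGG), which act beside SREBP, and stretches that hold CCAAT are shown for 5 of the members that were higher in the S961 library. Those of Cyp51, Idi1 and Hsd17b7 reach into the gene as GENCODE M21 gives it and are not shown. Dhcr7 has no stretch, because no CCAAT lay wholly before the start in the window read for the stretches. RefSeq promoter windows on GRCm38.p6, from 250 bases before to 50 bases after each start, were found for 18 of the 23 sterol genes and 7 of the 10 fatty acid genes. Fdft1, Fdps, Sqle, Star, Stard4, Fads1, Scd1 and Scd2 had no entry. In the stretches below, given 5′ to 3′ on the strand of the gene, capitals mark CCAAT or its reverse complement ATTGG, and in Hmgcs1 also the match to the sterol element TCACNCCAC. The stretches lie at chr13:119690104-119690320 (plus strand) for Hmgcs1, chr5:114444086-114444268 (plus) for Mvk, chr8:122443435-122443492 (minus) for Mvd, chr5:28071186-28071210 (plus) for Insig1 and chr15:82147124-82147148 (plus) for Srebf2.
Hmgcs1: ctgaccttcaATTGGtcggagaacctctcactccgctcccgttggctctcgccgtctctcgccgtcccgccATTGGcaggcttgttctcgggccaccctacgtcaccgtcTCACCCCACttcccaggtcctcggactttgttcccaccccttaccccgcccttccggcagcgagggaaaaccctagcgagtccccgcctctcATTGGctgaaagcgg
Mvk: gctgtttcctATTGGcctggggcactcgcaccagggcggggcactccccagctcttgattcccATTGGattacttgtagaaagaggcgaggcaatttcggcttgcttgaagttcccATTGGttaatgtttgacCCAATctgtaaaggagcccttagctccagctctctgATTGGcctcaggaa
Mvd: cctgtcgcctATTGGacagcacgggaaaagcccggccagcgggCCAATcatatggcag
Insig1: ccctcctcccATTGGctccggcggc
Srebf2: tcgcgcgccgATTGGctaatgcaag

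On either strand, CCAAT lay in 16 of the 22 sterol windows (72.7%), against 37.4% of all 32851 windows of the same length, and in 5 of the 10 fatty acid windows. Counted by gene, it was found for all 9 members with an entry that were higher in S961 than in control in beta-like cells, and also for 7 of the 9 that were not (all but Acat2 and Scap), so it does not set them apart. GGGCGG lay in 19 sterol windows (86.4%), against 35.7% of all windows, and in 5 fatty acid windows. The E-box CACGTG lay in 6 sterol windows (27.3%), against 7.15% of all, and in 0 fatty acid windows. The sterol element TCACNCCAC lay in 1 sterol window, that of Hmgcs1 (4.55%), against 1.24% of all, and in 0 fatty acid windows. None of these motifs contains another. These are matches of letters in a fixed window and do not show binding.

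Beta-like cells, named from 12 markers of beta cells that include insulin, were 2947 (control), 1488 (S961) and 2079 (recovered), and held 22640085, 21666442 and 22410818 UMIs (unique molecular identifiers, counted molecules). All 12 beta markers were detected in each library. A level below is in CPM, the UMIs of the gene scaled to a fixed total of 1000000 UMIs of the class in that library, and a gene was measured in a comparison if the 2 libraries together held at least 50 UMIs of it. The class joined 3 clusters, led by Mlxipl, by Pdyn and by the heat shock gene Hspa1a. The Pdyn-led cluster held more control cells (1402) than either of the others, while the Mlxipl-led cluster held the most S961 cells (768) and the most recovered cells (1057). The cells also differed in depth, with medians of 7471, 14027.5 and 10268 UMIs, and in mitochondrial share, with medians of 6.93%, 4.52% and 7.24%. Summed markers of alpha cells stood at 762, 1748 and 929 CPM in the beta-like cells of control, S961 and recovered, and those of acinar cells at 48.0, 161 and 137. RNA carried over from the other classes was estimated to make up at most 2.42% of the level of any member in any library, apart from Scd1 and Fads2, which are close to 0 in these cells. The doublet caller, set to an expected rate of 0.06, marked 3 of 4270 control cells, against 77 of 3507 and 24 of 3537 in S961 and recovered. Doublets may thus remain, above all in control, and why so few were marked was not tested. Of 11197 barcode sequences of analysed cells, 13 occurred in more than 1 library.

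In beta-like cells the sterol branch was higher in S961 than in control for part of its genes and lower for none, at the threshold used throughout, a ratio of at least 1.25 either way. Of 23 members, all measured, 10 were higher (43.5%), against 15.0% of the 11617 measured genes, and 0 were lower, against 12.1%. The median log2 ratio was 0.23 for the branch and -0.02 for all measured genes. The 10 were the enzymes Hmgcs1, Mvk, Mvd, Idi1, Cyp51, Hsd17b7 and Dhcr7, the regulators Insig1 and Srebf2, and the carrier Star. Summed over the branch the level moved less, from 582 CPM in control to 654 in S961 and 636 in recovered. Sqle and Pmvk, which hold the most UMIs of the branch, were past the threshold in no comparison over all beta-like cells. The plot of levels in beta-like cells gives every member.

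**Figure D1:**
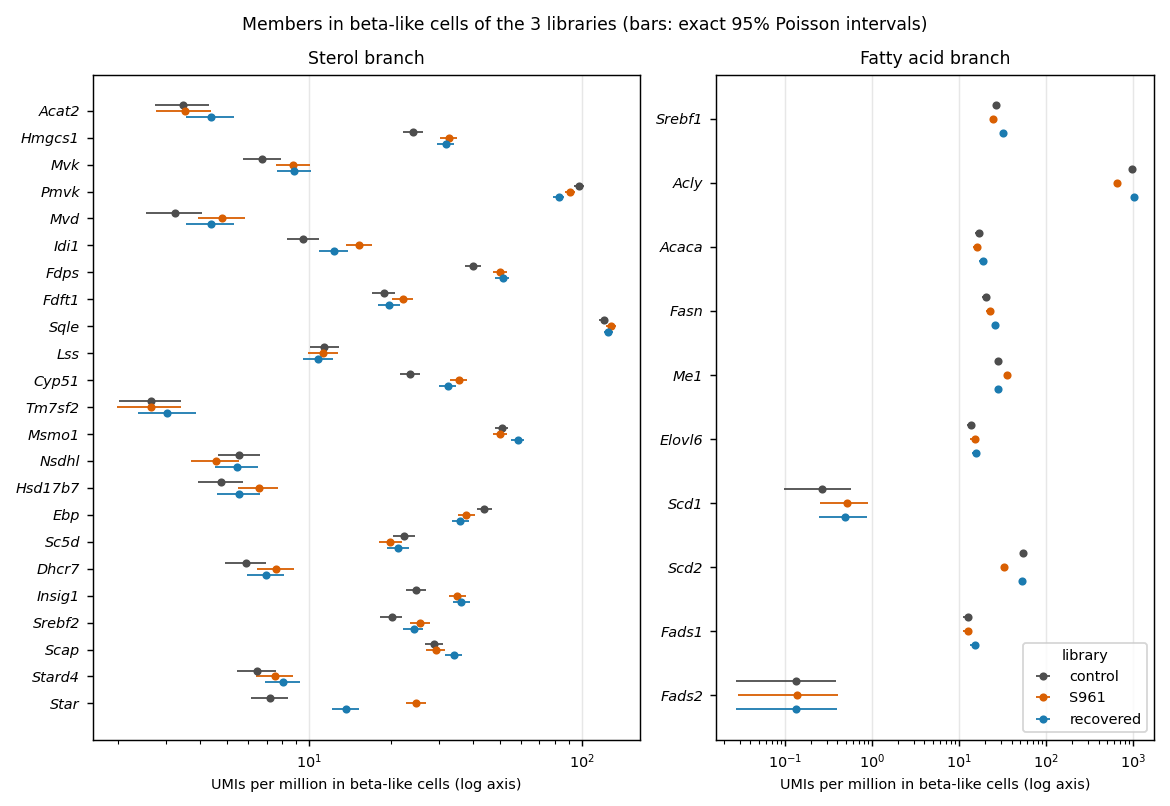
Level of each member in beta-like cells (horizontal log axis, CPM) in the control (grey), S961 (orange) and recovered (blue) libraries, sterol branch left and fatty acid branch right. Points are 1 library each and bars are exact 95% Poisson intervals. Star was lowest in control (7.20) and highest in S961 (24.7), and Acly was lowest in S961 (656).

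Among the regulators, Insig1 (chromosome 5, 28071363 to 28078662 on GRCm38/mm10, plus strand), the sterol-dependent brake on Scap, stood at 24.7 CPM in control, 35.0 in S961 and 36.2 in recovered. Over all beta-like cells control was the low library, and S961 and recovered lay close to each other. The log2 ratio was 0.50 (95% interval 0.35 to 0.66) for S961 over control, 0.05 (-0.10 to 0.19) for recovered over S961 and 0.55 (0.39 to 0.71) for recovered over control. Among cells of like depth, a grouping given below, recovered over S961 was -0.42 (-0.79 to -0.04) from 5000 to 10000 UMIs. It was -0.43 (-0.63 to -0.22) from 10000 to 20000, 1.87 (1.03 to 2.76) under 5000 and -0.06 (-0.50 to 0.35) from 20000 on. Srebf2 (chromosome 15, 82147181 to 82205379, plus strand) stood at 20.1, 25.6 and 24.2, a log2 ratio of 0.35 (0.17 to 0.53) for S961 over control. Its order depended on how cells were weighted: with each cell thinned to 2000 UMIs the ratio was -0.02, and in the Hspa1a-led cluster alone it was -0.41. Scap stood at 28.8, 29.2 and 33.9 and passed the threshold in no comparison over all beta-like cells.

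At the start of the mevalonate chain, Acat2, which joins 2 acetyl-CoA, stood at 3.45, 3.51 and 4.37 CPM in control, S961 and recovered, and was higher in recovered than in control by 0.34 on the log2 scale with an interval that includes 0 (-0.10 to 0.79). Hmgcs1 (chromosome 13, 119690379 to 119708260, plus strand), the synthase that adds the third acetyl-CoA, stood at 24.0, 32.5 and 31.7. Control was again the low library, by 0.44 (0.27 to 0.60) against S961 and 0.40 (0.24 to 0.56) against recovered. The kinase Mvk (chromosome 5, 114444269 to 114460591, plus strand) stood at 6.76, 8.77 and 8.84, and log2 ratios to control were 0.38 (0.06 to 0.69) in S961 and 0.39 (0.07 to 0.70) in recovered. The next kinase, Pmvk, did not share that pattern: its levels were 97.8, 90.5 and 82.3, and recovered over control was -0.25 (-0.34 to -0.16). The decarboxylase Mvd (chromosome 8, 122433601 to 122443422, minus strand) stood at 3.22, 4.80 and 4.37, with 0.57 (0.13 to 1.03) for S961 over control. Mvd in recovered over control was 0.44 (-0.01 to 0.90), and in the Pdyn-led cluster alone -0.08.

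In the isoprenoid steps control was again the low library. Idi1 (chromosome 13, 8885501 to 8892451, plus strand), the isomerase that makes the building block of farnesyl diphosphate, stood at 9.54, 15.3 and 12.4 CPM in control, S961 and recovered. S961 was the high library, at 0.68 (0.43 to 0.94) over control, and recovered lay between, at 0.37 (0.11 to 0.64) over control and -0.31 (-0.55 to -0.08) against S961. Fdps (chromosome 3, 89093588 to 89101959, minus strand), which makes farnesyl diphosphate, stood at 40.1, 50.1 and 51.3. It missed the threshold in S961 over control, at 0.32 (0.19 to 0.45), and passed it in recovered over control, at 0.35 (0.23 to 0.48).

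Squalene formation and its conversion to lanosterol differed little over all beta-like cells. Fdft1 stood at 18.9, 22.1 and 19.7 CPM in control, S961 and recovered, Sqle at 121, 128 and 125, and Lss at 11.4, 11.3 and 10.8. None of these passed the threshold there in any comparison. The largest ratio among them was that of Fdft1 in S961 over control, 0.23 (0.03 to 0.42). Among cells of like depth, a grouping given below, that ratio was 0.83 (0.36 to 1.28) from 5000 to 10000 UMIs. It was 0.61 (0.29 to 0.95) from 10000 to 20000, -0.54 (-1.36 to 0.23) under 5000 and -0.36 (-1.36 to 0.87) from 20000 on. Sqle was at -0.41 (-0.68 to -0.15) from 5000 to 10000 UMIs and -0.04 (-0.17 to 0.09) from 10000 to 20000.

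After lanosterol the enzymes were split. Cyp51 (chromosome 5, 4081145 to 4104746, minus strand), the lanosterol demethylase, stood at 23.4, 35.4 and 32.3 CPM in control, S961 and recovered. Control was low, by 0.60 (0.44 to 0.76) against S961 and 0.46 (0.30 to 0.63) against recovered. Hsd17b7 (chromosome 1, 169949535 to 169969241, minus strand), a 3-ketosteroid reductase, stood at 4.77, 6.55 and 5.53, with 0.46 (0.09 to 0.83) for S961 over control. Dhcr7 (chromosome 7, 143823145 to 143848410, plus strand), the last reductase of one arm, stood at 5.87, 7.57 and 6.96, with 0.37 (0.03 to 0.71). The other 5 enzymes of this stage passed the threshold in no comparison over all beta-like cells. Msmo1 stood at 50.9, 50.3 and 58.2, Sc5d at 22.3, 19.9 and 21.3, Nsdhl at 5.57, 4.57 and 5.44, and Tm7sf2 at 2.65, 2.63 and 3.03. The isomerase Ebp was highest in control, at 43.9, against 37.8 and 35.9, a log2 ratio of -0.22 (-0.35 to -0.08) for S961 over control and -0.29 (-0.43 to -0.16) for recovered over control.

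Star (chromosome 8, 25806555 to 25815982, plus strand), the carrier that brings cholesterol to the inner mitochondrial membrane in steroid-making cells, had the largest ratio of the measured members in each comparison. It stood at 7.20 CPM (163 UMIs) in control, 24.7 (536 UMIs) in S961 and 13.7 (307 UMIs) in recovered. S961 was high, recovered lay between and control was low, with log2 ratios of 1.78 (1.53 to 2.04) for S961 over control, -0.85 (-1.06 to -0.65) for recovered over S961 and 0.93 (0.65 to 1.21) for recovered over control. Star is also one of the genes that lead the Pdyn-led cluster, so its level was read within clusters: in control, S961 and recovered it was 2.54, 8.41 and 4.25 in the Mlxipl-led cluster, 8.93, 35.6 and 22.7 in the Pdyn-led cluster and 10.0, 38.1 and 16.3 in the Hspa1a-led cluster. The order of the libraries was the same in each cluster. With every cell thinned to 2000 UMIs, the share of beta-like cells with a Star UMI was 1.15% in control, 2.90% in S961 and 2.13% when recovered (4.28%, 14.0% and 8.32% before thinning), against 0.688%, 0.635% and 0.265% of the cells of all other named classes. Median depths before thinning were 7471, 14027.5 and 10268 UMIs in the beta-like cells and 4390, 8998 and 5773 in the others, and 160, 75 and 58 beta-like cells were too shallow to thin. The other carrier, Stard4, stood at 6.45, 7.52 and 8.03, and its largest ratio, 0.32 (-0.01 to 0.64) for recovered over control, missed the threshold.

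Between S961 and recovered the sterol branch differed little over all beta-like cells. Of 23 measured members 0 were higher in recovered, against 13.9% of all 11662 measured genes, and 1, Star, was lower, against 9.46%. The median log2 ratio was -0.04 for the branch and 0.06 for all measured genes. Set against control, 9 of 23 were higher in recovered (39.1%, against 11.1% of 11596 genes) and 0 lower (against 4.38%), with a median of 0.24 against 0.05. They were Acat2, Hmgcs1, Mvk, Mvd, Idi1, Fdps, Cyp51, Insig1 and Star. The comparisons with control share the control library, so control being low in both is 1 observation and not 2.

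**Figure D2:**
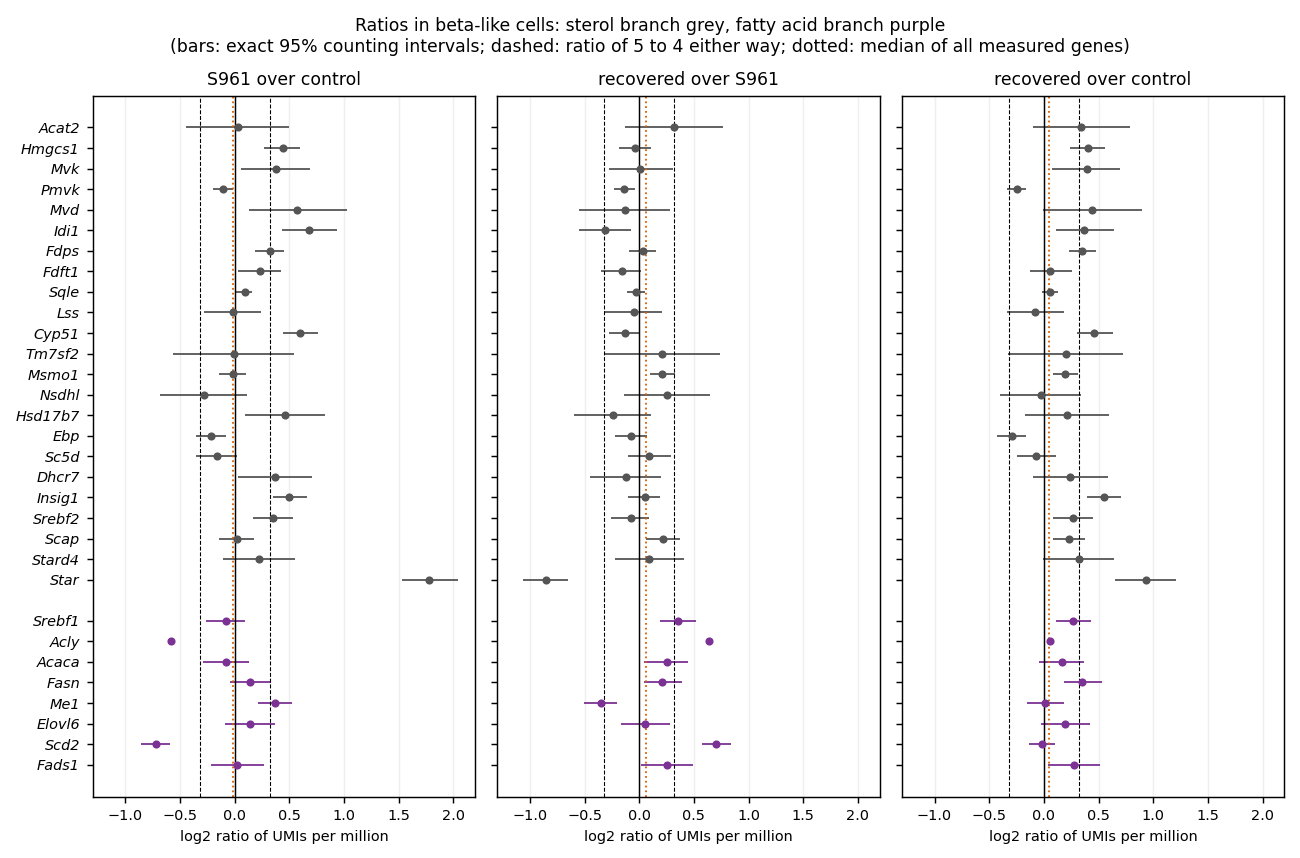
Log2 ratio of the level of each measured member in beta-like cells for S961 over control, recovered over S961 and recovered over control (sterol branch grey, fatty acid branch purple), with exact 95% counting intervals. Dashed lines mark a ratio of 1.25 either way and the dotted line the median of all measured genes. Star at 1.78 and Idi1 at 0.68 lie farthest right in S961 over control, and Scd2 at -0.72 and Acly at -0.58 farthest left.

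The same counts were taken within each beta-like cluster, a grouping added after seeing the data. In the Mlxipl-led cluster 8 of 22 measured sterol members were higher in S961 than in control and 1 lower, against 15.0% and 16.3% of all measured genes, and in the Pdyn-led cluster 8 of 23 were higher and 1 lower, against 14.0% and 14.5%. In the small Hspa1a-led cluster 5 of 15 were higher and 2 lower, against 14.2% and 21.2%. Idi1, Cyp51 and Star were higher in all 3 clusters, whereas Insig1 passed the threshold in the Mlxipl-led and Hspa1a-led clusters and Hmgcs1 in the Hspa1a-led cluster alone. In recovered over S961 the members lower were Pmvk and Star, Idi1, Fdft1 and Star, and Hmgcs1, Ebp and Star, in the same order of clusters, with 0, 1 and 1 higher. The shares of all measured genes lower there were 9.68%, 9.56% and 12.9%, and those higher 16.2%, 16.1% and 22.1%. In recovered over control 8 of 22, 3 of 23 and 6 of 14 sterol members were higher, against 11.5%, 10.0% and 13.8%, and 1, 0 and 1 lower, against 5.40%, 4.82% and 10.5%.

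In the fatty acid branch, 8 of the 10 members were measured in beta-like cells, and 2 of them stood out as low in the S961 library. Scd1, a stearoyl-CoA desaturase, held 6, 11 and 11 UMIs in control, S961 and recovered, and Fads2, a desaturase of polyunsaturated fatty acids, held 3 in each, so neither was measured. In S961 over control 1 of the 8 was higher (Me1) and 2 were lower (Acly and Scd2), with a median log2 ratio of -0.03 against -0.02 for all measured genes. In recovered over S961, 3 were higher (Srebf1, Acly and Scd2) and 1 lower (Me1), with a median of 0.25 against 0.06. In recovered over control 1 was higher (Fasn) and 0 lower, with a median of 0.18 against 0.05. The shares of all measured genes past the threshold are those given for the sterol branch.

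Acly (chromosome 11, 100476353 to 100528000, minus strand), the citrate lyase that supplies cytosolic acetyl-CoA to both branches, held most of the UMIs of its branch. It stood at 982 CPM in control, 656 in S961 and 1023 in recovered. S961 was the low library, by a log2 ratio of -0.58 (-0.61 to -0.55) against control, and recovered over S961 was 0.64 (0.61 to 0.67). Recovered and control differed by 0.06 (0.03 to 0.09). Scd2 (chromosome 19, 44293674 to 44306864, plus strand), the stearoyl-CoA desaturase detected in these cells, showed the same order, at 53.8, 32.6 and 53.1: -0.72 (-0.86 to -0.59) for S961 over control, 0.70 (0.57 to 0.84) for recovered over S961 and -0.02 (-0.14 to 0.10) for recovered over control. When the insulin-rich cells of the cluster led by pseudogenes were added to the class, Scd2 in S961 over control was -0.26 and missed the threshold. S961 was the lowest library in each beta-like cluster for both genes: Acly stood at 1102, 722 and 1129 in the Mlxipl-led, 1014, 643 and 989 in the Pdyn-led and 618, 390 and 707 in the Hspa1a-led cluster.

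Me1 (chromosome 9, 86581371 to 86695953, minus strand), the cytosolic malic enzyme that makes NADPH, went the other way, at 27.7 CPM in control, 35.7 in S961 and 28.0 in recovered. S961 was high, by 0.37 (0.21 to 0.52) over control, and recovered over S961 was -0.35 (-0.51 to -0.20). The regulator Srebf1 (chromosome 11, 60199089 to 60222581, minus strand) stood at 26.3, 24.8 and 31.7 and passed the threshold only in recovered over S961, at 0.35 (0.19 to 0.52). Fasn (chromosome 11, 120805846 to 120824547, minus strand), the fatty acid synthase, stood at 20.3, 22.4 and 26.0, with 0.35 (0.18 to 0.53) for recovered over control. Acaca, the acetyl-CoA carboxylase, stood at 16.8, 15.9 and 18.9, the elongase Elovl6 at 13.7, 15.1 and 15.7, and the desaturase Fads1 at 12.5, 12.6 and 15.1. These 3 passed the threshold in no comparison. Acly and Scd2 were thus low in S961 while the enzymes that act between them, Acaca, Fasn and Elovl6, differed by less than 1.25-fold between S961 and control over all beta-like cells. Fasn did not keep to that among cells of like depth, as given below.

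Because beta-like cells of the S961 library were deeper, the members were also read among cells of like depth, a grouping chosen after seeing the data. The class held 368 S961 cells under 5000 UMIs that stood apart: their medians were 753.5 genes and 1.68% mitochondrial UMIs, against 1156 genes and 7.75% in 588 control cells and 1143.5 genes and 8.49% in 180 recovered cells of that depth. In these shallow cells 57.6% of S961 cells held no Acly UMI, against 21.4% in control and 27.2% in recovered. S961 also had their lowest sterol sum, 489 CPM, where control held 630 and recovered 706. Among sterol members measured there, only Pmvk (0.08) and Ebp (0.51, -0.08 to 1.09) had a positive log2 ratio of S961 to control. Intervals were wholly negative for Fdps (-0.92), Msmo1 (-0.59), Insig1 (-1.19), Srebf2 (-1.58, -2.61 to -0.67) and Scap (-1.82). Without cells under 5000 UMIs, 10 sterol members were again higher in S961 than in control and 0 lower, and in the fatty acid branch 1 was higher and 2 lower, against 17.4% and 10.3% of all measured genes.

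Between 10000 and 20000 UMIs, where the libraries held 623 control, 494 S961 and 1020 recovered beta-like cells, more sterol members passed the threshold. Of 22 measured sterol members 14 were higher in S961 than in control and 0 lower, with a median of 0.58, but 32.3% of all measured genes were higher there, 9.50% were lower, and their median was 0.16. Hmgcs1 stood at 21.8, 39.8 and 32.1 CPM in control, S961 and recovered, a log2 ratio of 0.87 (0.59 to 1.15) for S961 over control, and Idi1 at 8.58, 18.3 and 12.2, a ratio of 1.09 (0.66 to 1.54). In these cells 6 of 23 sterol members were lower in recovered than in S961, against 21.7% of all measured genes, and 0 were higher, against 7.10%. Of the same members 14 were higher in recovered than in control and 0 lower, against 14.6% and 5.82%. Acly stood at 932, 794 and 981, and its ratio of S961 to control, -0.23 (-0.28 to -0.18), missed the threshold, as did that of Scd2, -0.29 (-0.52 to -0.06). From 5000 to 10000 UMIs, with 1721 control, 201 S961 and 785 recovered cells, both passed it, at -0.49 (-0.58 to -0.40) and -0.43 (-0.83 to -0.06), and 9 of 21 measured sterol members were higher and 5 lower, against 24.8% and 20.5% of all measured genes. At that depth 8 of 18 sterol members were lower in recovered than in S961 and 1 higher, against 13.8% and 23.0%, and 9 of 23 were higher in recovered than in control and 2 lower, against 21.2% and 7.39%. Fasn was higher in S961 than in control at both depths, at 0.70 (0.24 to 1.13) from 5000 to 10000 UMIs and 0.61 (0.29 to 0.93) from 10000 to 20000. Its ratio was -0.36 (-1.31 to 0.53) under 5000 UMIs and -0.38 (-1.39 to 0.85) from 20000 UMIs on. The ratio of Acly in S961 over control was negative in each of the 4 depth groups, from -1.81 under 5000 UMIs to -0.23, and so its size differed with depth.

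Star also differed with depth. Its log2 ratio of S961 to control was 0.70 (-0.20 to 1.51) from 5000 to 10000 UMIs and 0.55 (0.10 to 1.01) from 10000 to 20000 UMIs. It was 1.23 (-0.49 to 3.03) under 5000 and 0.99 (-0.14 to 2.45) from 20000 on, with 6 control UMIs of Star in each. Every depth group thus lay below the 1.78 over all beta-like cells. From 10000 to 20000 UMIs Star stood at 9.23 CPM in control, 13.5 in S961 and 16.4 in recovered. Recovered over S961 was there 0.28 (-0.06 to 0.64) in place of -0.85. The 425 S961 cells of at least 20000 UMIs, a depth reached by 15 control and 94 recovered cells, held 411 of the 536 Star UMIs of that library, at 35.5 CPM against 17.8 in control and 15.5 in recovered. Hsd17b7 had a ratio of S961 to control of -0.58 (-2.25 to 0.71) from 5000 to 10000 UMIs, on 5 UMIs in S961 and 65 in control.

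**Figure D3:**
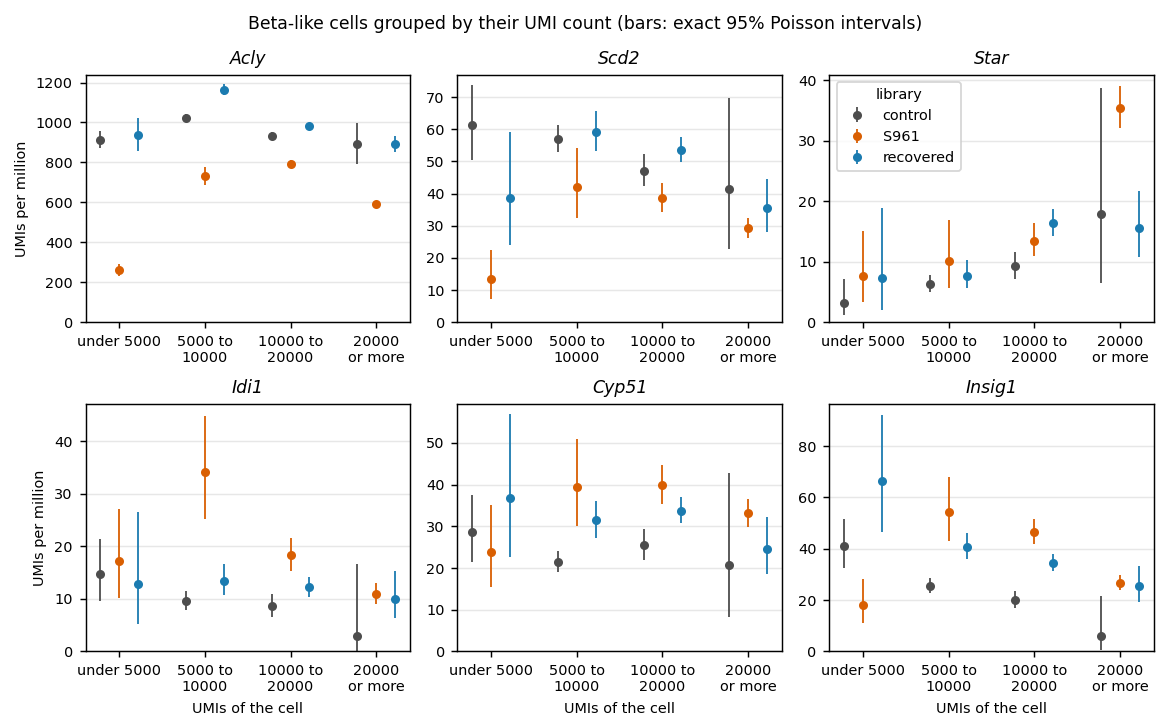
Level of 6 members (vertical axis, CPM) in beta-like cells grouped by the UMI count of the cell (horizontal axis, 4 groups) in the control (grey), S961 (orange) and recovered (blue) libraries, with exact 95% Poisson intervals. Acly was lowest in S961 in every group, Star was highest in the deepest S961 cells (35.5), and Insig1 in the shallowest cells was lowest in S961 (18.1) but highest there from 5000 UMIs on.

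Related genes outside both branches were read from fixed lists. On the sterol side, the sterol exporter Abcg1 stood at 32.0 CPM in control, 24.8 in S961 and 35.3 in recovered. S961 was the low library, at -0.36 (-0.53 to -0.20) over control, and recovered over S961 was 0.51 (0.35 to 0.67). The acetoacetyl-CoA synthetase Aacs had the same low library, at 21.6, 16.9 and 24.5, with -0.35 (-0.55 to -0.16) for S961 over control and 0.53 (0.34 to 0.72) for recovered over S961. Soat1, which esterifies cholesterol, stood at 17.3, 16.1 and 20.6 and passed the threshold in recovered over S961, at 0.36 (0.16 to 0.56). Mylip, a ubiquitin ligase, stood at 7.33, 8.82 and 6.78, with -0.38 (-0.70 to -0.06) in that comparison.

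On the fatty acid side 18 of the 19 listed genes were measured, all but Acacb. In S961 over control 2 were higher (11.1%) and 1 lower (5.56%), shares below the 15.0% and 12.1% of all measured genes. The 2 were Mid1ip1, at 39.3, 54.2 and 40.7 CPM in control, S961 and recovered (0.46, 0.34 to 0.59), and Thrsp, at 2.39, 4.89 and 2.10 (1.04, 0.55 to 1.54), paralogues whose products act on acetyl-CoA carboxylase. The elongase Elovl5 was lower, at 38.8, 28.2 and 39.7 (-0.46, -0.61 to -0.31). In recovered over S961 these 3 differed in the opposite direction, Mid1ip1 at -0.41, Thrsp at -1.22 and Elovl5 at 0.50, comparisons that share the S961 library with those before. Between recovered and control 1 gene passed the threshold, Mlxipl, at 109, 131 and 146 (0.42, 0.34 to 0.49), which also leads a beta-like cluster. Of all measured genes 13.9% were higher and 9.46% lower in recovered over S961, and 11.1% and 4.38% in recovered over control.

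The other classes gave fewer UMIs, so fewer members could be measured, and each held RNA of beta-like cells in an amount that differed between libraries. Insulin genes made up 3.66%, 0.610% and 1.80% of the UMIs of alpha-like cells in control, S961 and recovered, 8.08%, 0.458% and 7.80% in delta-like, 5.74%, 0.788% and 1.53% in endothelial-like and 10.4%, 1.41% and 2.79% in stellate-like cells. The levels of all members in these classes were therefore also computed with the beta-like RNA taken off, in an amount set by the insulin genes, an alternative added after seeing the data. In alpha-like cells no member past the threshold lost it that way. Those that lost it in the other classes are named below. Other members gained it, among them Sqle in alpha-like cells, at 0.37 for S961 over control, and not all of these are named. Counts of members in these classes are of levels as measured.

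**Figure D4:**
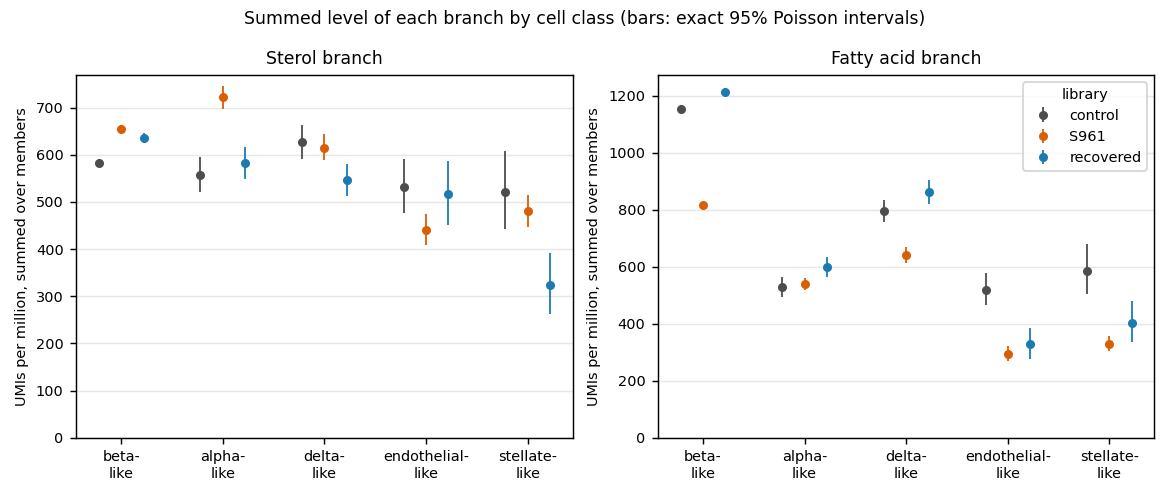
Summed level of the sterol branch (left) and the fatty acid branch (right) in 5 cell classes (vertical axis, CPM; horizontal axis, class) in the control (grey), S961 (orange) and recovered (blue) libraries, with exact 95% Poisson intervals. The sterol sum of alpha-like cells was highest in S961 (722), and the fatty acid sum of beta-like cells lowest there (816).

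Alpha-like cells, which make glucagon and at this resolution include cells with Ppy, were 312, 459 and 277 in the control, S961 and recovered libraries, with median depths of 4790.5, 10363 and 6795 UMIs. Their sterol sum was 558, 722 and 582 CPM, high in S961. Of 21 measured sterol members 8 were higher in S961 than in control (38.1%, against 19.7% of all 8691 measured genes) and 0 lower (against 7.86%), with a median of 0.26 against 0.06. They were Hmgcs1, Idi1, Fdps, Fdft1, Lss, Cyp51, Hsd17b7 and Insig1. The ratios farthest from 0 by their interval were those of Lss, at 5.10 and 13.6 in control and S961 (8 and 66 UMIs; log2 ratio 1.42, 0.36 to 2.69), Fdps, at 45.2 and 74.6 (0.72, 0.35 to 1.11), and Cyp51, at 27.4 and 47.6 (0.80, 0.32 to 1.30).

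In recovered over S961, alpha-like cells had 8 of 20 measured sterol members lower (against 15.3% of all 8873 measured genes) and 0 higher (against 10.6%), with a median of -0.20 against -0.03. Farthest from 0 were Hsd17b7, at 14.7 in S961 and 5.11 in recovered (-1.52, -2.64 to -0.56), Cyp51, at 47.6 and 28.6 (-0.73, -1.18 to -0.31), and Pmvk, at 84.2 and 55.2 (-0.61, -0.93 to -0.30). In recovered over control 2 of 14 were higher, Fdps and Insig1, and 1 lower, Pmvk, against 16.1% and 10.2% of all 6820 measured genes. Fdps in alpha-like cells was 70.5 in recovered, 0.64 (0.22 to 1.07) over control.

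In the fatty acid branch of alpha-like cells 3 of 8 measured members, Fasn, Me1 and Elovl6, were higher in S961 than in control and 0 lower, against 19.7% and 7.86% of all measured genes. Acly did not share the difference seen in beta-like cells: it stood at 373, 334 and 386 CPM in control, S961 and recovered, a ratio of -0.16 (-0.30 to -0.02) for S961 over control, and 0.17 with the beta-like RNA taken off. Set against control, 4 of 6 measured members were higher in recovered, Acaca, Fasn, Me1 and Scd2, against 16.1% of all measured genes, and the intervals of Me1 and Scd2 lay above 0, at 0.71 (0.19 to 1.25) and 0.54 (0.08 to 1.01). That the ratio of Acly differs between the classes was not tested.

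In delta-like cells (370, 345 and 232 cells; median depths of 4499, 9574 and 6849 UMIs), which make somatostatin, the sterol branch differed little between S961 and control. Of 16 measured members 1 was higher, Stard4, at 7.57 in control and 16.0 in S961 (1.08, 0.23 to 2.01), and 1 lower, Srebf2, against 25.1% and 8.75% of all 8607 measured genes. The fatty acid branch had 4 of 8 measured members lower in S961, Srebf1, Acly, Acaca and Fasn, and 2 higher, Me1 and Fads1. Srebf1 stood at 20.7 in control, 8.75 in S961 and 16.5 in recovered, with -1.24 (-1.98 to -0.52) for S961 over control and 0.91 (0.14 to 1.70) for recovered over S961. With the beta-like RNA taken off, which was estimated at 26.3% of the delta-like UMIs in control and 1.38% in S961, Srebf1 was at -1.13 and 0.42 in these comparisons. Fasn stood at 19.7 in control and 11.5 in S961 (-0.78, -1.46 to -0.10). Acly stood at 608, 472 and 682, with -0.37 (-0.47 to -0.26) for S961 over control and 0.53 (0.42 to 0.64) for recovered over S961, which were -0.02 and 0.28 with that RNA taken off. Me1, at 0.35 (-0.05 to 0.75) for S961 over control, was then at 0.20.

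Delta-like cells had 7 of 16 measured sterol members lower in recovered than in S961 (against 19.8% of all 8593 measured genes) and 0 higher (against 9.11%). Msmo1 was at -0.47 (-0.86 to -0.09) and Nsdhl at -1.08 (-2.19 to -0.09), with Hmgcs1 next at -0.38 (-0.84 to 0.06). In recovered over control 3 of 13 were lower, Msmo1, Sc5d and Srebf2, and 0 higher, against 10.2% and 14.1% of all 7498 measured genes. With the beta-like RNA taken off, further members passed the threshold as lower. In recovered over S961 these were Fdps (-0.37), Sqle (-0.38) and Cyp51 (-0.36), and Sqle turned direction, from 60.0 CPM in S961 and 65.4 in recovered as measured. In recovered over control they were Fdps (-0.55), Insig1 (-0.47) and Scap (-0.37).

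Endothelial-like cells (156, 215 and 81 cells) and stellate-like cells (94, 207 and 51 cells; stellate cells and fibroblasts were not told apart), named by vessel and collagen markers, gave 7 measured sterol members each in S961 over control. In endothelial-like cells 4 were lower, Pmvk, Fdps, Msmo1 and Insig1, and 1 higher, Stard4, against 11.5% and 27.1% of all 6168 measured genes. In stellate-like cells 3 were lower, Fdps, Sqle and Ebp, and 2 higher, Hmgcs1 and Cyp51, against 14.2% and 41.6% of all 5489 measured genes. With the beta-like RNA taken off, directions turned: Pmvk in endothelial-like cells went from -0.48 (29.5 and 21.2 CPM in control and S961) to 0.49 (13.8 and 19.5), and Sqle in stellate-like cells from -0.55 (42.8 and 29.3) to 3.09, where 2.93 was left in control. Stard4 in endothelial-like cells went from 0.36 to 0.16, and Pmvk in stellate-like cells, in recovered over S961, from 0.34 to 0.29. The intervals of the 5 called members, before that step, included 0 in each class, as for Fdps at -0.47 (-1.10 to 0.17) and -0.62 (-1.37 to 0.20) and for Cyp51 in stellate-like cells at 0.92 (-0.13 to 2.17). Endothelial-like cells had 3 of 7 sterol members higher in recovered than in S961, Msmo1, Sc5d and Stard4, and 1 lower, Hmgcs1, against 16.1% and 18.6% of all 5911 measured genes, again with intervals that include 0. In recovered over control 3 sterol members were measured there and 0 passed the threshold, against 24.3% higher and 11.8% lower of all 3991 measured genes.

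Acly stood at 340, 109 and 133 CPM in control, S961 and recovered endothelial-like cells, with -1.64 (-1.94 to -1.34) for S961 over control, and -1.01 with the beta-like RNA taken off. In stellate-like cells it stood at 385, 110 and 165, with -1.81 (-2.15 to -1.46) as measured and 0.12 with that RNA taken off. In the stellate-like class, where beta-like RNA was estimated at 33.9% of the control UMIs, the measured difference in Acly thus moved with the amount of that RNA. Scd2 in stellate-like cells was higher in recovered than in S961, at 104 against 56.2 (0.89, 0.27 to 1.48), and in that comparison 6 of 7 sterol members were lower and 1, Pmvk, higher, against 37.1% and 18.3% of all 5514 measured genes. Acly was the only member measured in recovered over control there, at -1.23 (-1.73 to -0.74), and at 0.02 with the beta-like RNA taken off, against 19.2% of 1980 genes lower and 32.6% higher. In recovered over S961 Acly went from 0.58 to -0.10 that way. Clustered at a resolution of 1.0, 13 of the 51 recovered cells of this class formed a cluster of their own, led by Col3a1, Il33 and C3, with 0 control and 0 S961 cells, so the recovered class holds cells that the S961 class lacks. For recovered over S961, Msmo1, with 4 UMIs in recovered, was at -1.66 (-3.58 to -0.24) and Cyp51, with 6, at -1.39 (-2.87 to -0.20). Me1 of the fatty acid branch, with 3 UMIs, was at -1.99 (-4.30 to -0.38).

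Several members overlap another gene, and whether the counting used strand is not given in the sources used here. Cyp51 overlaps Akap9, Fdft1 overlaps Ctsb and Srebf1 overlaps Rai1, each on the opposite strand, and Tm7sf2 overlaps Vps51 on the same strand in GENCODE M21. Idi1, Hmgcs1 and Mvd each overlap, on the opposite strand, a predicted gene without a function assigned in its name. Fdps, Srebf2, Acaca, Me1 and Elovl6 each overlap such a gene on the same strand. Reads of same-strand pairs, and of opposite-strand pairs if strand was not used, cannot be told apart from the counts.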

How the data were processed

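The deposited values are counts of UMIs per gene and barcode, made with Cell Ranger (version not given) on mm10, per the submitters' processing notes. The barcode suffix given in the labels assigned each barcode to its library. The libraries held 38265969 (control), 47651767 (S961) and 40102058 (recovered) UMIs, and no barcode held fewer than 500. Barcodes under 500 genes or above 20% mitochondrial UMIs were left out, as were doublets called by Scrublet, and 4267, 3430 and 3513 cells clustered with scanpy 1.11.5 and leidenalg 0.10.2 (2000 variable genes, 30 components, 15 neighbours, resolution 0.5). Clusters were named from marker lists. UMIs were summed per class and library (scipy 1.17.1). Ratios carry exact conditional binomial 95% intervals, levels exact Poisson intervals and shares of cells exact Clopper-Pearson intervals, all covering counting error only. The interval and call steps were tested on simulated counts drawn with counting error only. That check of the computation cannot speak to variation between cells or libraries. Members and lists were chosen with earlier results of these data known. Named genes were every member in beta-like cells, the 3 members each way whose interval lay farthest from 0 in other classes of at least 50 cells, and other pathway genes past 1.25-fold, of which some on the sterol side are not reported here. The 13 planned and 6 added alternatives are given in the closing section. Coordinates are from GENCODE M21.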

Additional observations from a re-analysis of the deposited data

How the results depend on the processing

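No paired analysis was possible because each group was 1 library, and leaving a library out was not possible for the same reason. Over 19 alternatives, 13 planned and 6 chosen after seeing the data, the number of sterol members higher in S961 than in control ran from 3 to 14 (10 as reported). Of the 19, 16 stayed within 1.5 times. The exceptions were 3 at 1.5-fold, 6 of 18 measured with cells thinned to 2000 UMIs and 5 of 15 measured in the Hspa1a-led cluster. Of all measured genes 6.03%, 11.6% and 14.2% were higher under these exceptions. Sterol members higher in recovered than in control (9 as reported) numbered 1 at 1.5-fold, 3 in the Pdyn-led cluster and 14 between 10000 and 20000 UMIs. The shares of all measured genes were 3.17%, 10.0% and 14.6% in that order. Sterol members lower in recovered than in S961 (1 as reported) numbered 2 at most 10% mitochondrial UMIs, with the CPM averaged over cells, relative to the median gene and in the Mlxipl-led cluster. They numbered 3 in thinned cells and in the Hspa1a-led and Pdyn-led clusters. There were 5 at 4 to 7% mitochondrial UMIs, 6 between 10000 and 20000 UMIs and 8 between 5000 and 10000. Of all measured genes 10.4%, 21.7% and 13.8% were lower at these last settings, and 9.28% in thinned cells. Fatty acid members higher in S961 than in control (1 as reported) numbered 0 at 1.5-fold, at 4 to 7% mitochondrial UMIs, with the mean CPM and in the Hspa1a-led cluster, 2 between 5000 and 10000 UMIs and 3 between 10000 and 20000. Those lower in recovered than in S961 (1 as reported) numbered 0 at 1.5-fold, under both mitochondrial limits, with the mean CPM, in the Hspa1a-led and Mlxipl-led clusters and with insulin-rich pseudogene-led cells. Those higher in recovered than in control (1 as reported) numbered 0 at 1.5-fold, under both mitochondrial limits, relative to the median gene, in the Pdyn-led cluster, with the pseudogene-led cells and without the Hspa1a-led cluster, 2 in thinned cells, in the Mlxipl-led cluster, without cells under 5000 UMIs and between 10000 and 20000, 3 between 5000 and 10000 and 4 in the Hspa1a-led cluster. Fatty acid members lower in S961 than in control (2 as reported) ran from 0 between 10000 and 20000 UMIs to 4 in thinned cells. Those higher in recovered than in S961 (3 as reported) ran from 1 between 10000 and 20000 UMIs to 6 with the CPM averaged over cells. For all measured genes the share higher in S961 than in control ran from 6.03% to 32.3%, and the share lower from 2.81% to 25.6%. In recovered over S961 these shares ran from 3.47% to 31.7% and from 3.43% to 21.7%. The share higher in recovered than in control ran from 3.17% to 21.2%. The causes of the changes in count were not tested. Of 1700 values of single members 5 turned direction: Srebf2 in S961 over control at -0.02 in thinned cells and -0.41 in the Hspa1a-led cluster, Mvd in recovered over control at -0.08 in the Pdyn-led cluster, Hsd17b7 in S961 over control at -0.58 between 5000 and 10000 UMIs, and Star in recovered over S961 at 0.28 between 10000 and 20000. Idi1 and Star in S961 over control and Scd2 in recovered over S961 passed the threshold under all 19 alternatives.

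Weighting cells equally moved all genes: with the mean CPM the median log2 ratio was -0.12 in S961 over control and 0.16 in recovered over S961, with 12.2% higher and 25.6% lower, and 31.7% and 8.89%. In thinned cells the medians were -0.09 and 0.12, with 11.6% and 23.3%, and 28.1% and 9.28%. Relative to these medians Acly in S961 over control, -0.71 and -0.70, stayed lower. Depth limits the members with under 100 UMIs in 1 library or more (Acat2, Mvd, Tm7sf2, Nsdhl), whose intervals span 1.5-fold or more, and most members in endothelial-like and stellate-like cells.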

Other observations

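Ductal-like cells (7, 18 and 20 in the control, S961 and recovered libraries), too few for the comparisons, had summed sterol levels of 922 (656 to 1261), 1815 (1675 to 1964) and 1059 (933 to 1197) CPM, above the 582, 654 and 636 of beta-like cells in the same libraries. Acinar-like cells (6, 107 and 36) stood at 602, 516 and 858. Barcodes left out for over 20% mitochondrial UMIs but with at least 500 genes, 2033, 468 and 1919 in control, S961 and recovered, had fatty acid sums of 1170, 641 and 1214 CPM of non-mitochondrial UMIs, with S961 low as in the beta-like cells, and sterol sums of 797, 735 and 854, where S961 was not high. The makeup of those barcodes by cell type was not determined.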
